A study of Mus musculus with 2 samples.

Results

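Genomic imprinting keeps genes active mainly on the chromosome inherited from the mother or mainly on that from the father. The genes described here, in lung ILC2s of offspring of control and of asthmatic mothers, are 40 imprinted mouse genes, taken by symbol from the GENCODE vM21 annotation of GRCm38, out of 55536 annotated genes. All 40 symbols were found; 35 are protein-coding and 5 are noncoding. The readout is trimethylation of histone H3 at lysine 4 (H3K4me3), a mark of active and poised transcript starts, as listed peaks within 1000 bp of any annotated start of a gene, called start peaks below.

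Imprints are laid down as DNA methylation in the egg or the sperm, at germline differentially methylated regions (DMRs), and are kept through development. The unmethylated copy of such a region can carry H3K4me3 while the methylated copy does not. ZFP57, a zinc finger protein that guards imprints, binds the methylated hexamer TGCCGC. Many imprinted genes act in growth, placenta and brain, and the clusters they form are often controlled by a long noncoding RNA such as Airn or Kcnq1ot1 that silences its neighbours on the paternal chromosome. The mice were C57BL/6J, so the parental copies could not be told apart in these data, and no peak is assigned to an allele.

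The mark was mapped by CATCH-seq, a form of ChIP-seq on unfixed chromatin that works with few cells, where micrococcal nuclease makes the fragments and carrier DNA limits losses. Each of the 2 libraries came from about 3000 lung ILC2s, the group 2 innate lymphoid cells that make type 2 cytokines, of 8-week-old offspring. Control mothers were sensitized with PBS in alum and asthmatic mothers with 100 µg of ovalbumin (OVA) in alum on day -21 and day -7, before mating with untreated males, and were then given PBS or 500 µg of OVA into the nose between gestation day 4 and day 17. The offspring themselves are not labelled as having received an allergen in these libraries. The comparison asks whether the starts of imprinted genes carried the mark alike in offspring of control mothers (PBS list) and offspring of asthmatic mothers (OVA list).

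There was 1 library per group, so no value has a replicate and no test between groups was possible. The offspring of each group came from a single mother, so mother and litter differ between the groups along with the treatment. The part of mother and litter in the results below was not tested. In the PBS list there were 42126 peaks, 315 bp wide at the median, and in the OVA list 51610 peaks, 249 bp wide at the median. The authors' −log10 q, the strength of a peak against the background of its own library, was 2.02 and 2.01 at the lowest. The number of fragments at each summit was worked out from the fold and p that the authors give, and its median over the start peaks of protein-coding genes was 24 in the PBS list and 16 in the OVA list. A summit over the lowest background needed at least 9 fragments to be listed in the PBS list and 8 in the OVA list, and more over a higher local background, so a gene without a peak is not shown to lack the mark. Of 14 ILC2 markers, 11 had a start peak in the PBS list and 8 in the OVA list, Il1rl1 (ST2), Rora and Il2ra among those in both, while Gata3, Il7r and Il5 had one in the PBS list only and Icos, Il13 and Klrg1 in neither. None of the 5 B cell, 6 macrophage or 6 fibroblast markers had one in either list. Of 7 T cell markers, Foxp3 had one in the OVA list, and of 5 epithelial and 4 endothelial markers, Epcam, Cdh1 and Kdr had one in the PBS list and Sftpb in the OVA list. The part of other cells in the results below was not tested.

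The sequences under the peaks that most of the comparison turns on are shown first. They are peaks at starts set in germline DMRs, each listed in offspring of control mothers only, and for contrast the Igf2r start, listed in both groups. Each is a stretch of the GRCm38 reference inside the peak, outside annotated untranslated regions, printed 5′ to 3′ on the strand of the gene, with ZFP57 hexamers (TGCCGC, or GCGGCA where it lies on the opposite strand) in capitals.
Airn, peak nearer the start (chr17:12741679-12741858, plus strand): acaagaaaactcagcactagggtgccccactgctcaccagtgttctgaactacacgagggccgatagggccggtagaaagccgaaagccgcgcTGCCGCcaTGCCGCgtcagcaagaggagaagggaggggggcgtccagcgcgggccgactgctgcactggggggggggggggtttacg
Airn, peak farther inside (chr17:12742240-12742419, plus strand): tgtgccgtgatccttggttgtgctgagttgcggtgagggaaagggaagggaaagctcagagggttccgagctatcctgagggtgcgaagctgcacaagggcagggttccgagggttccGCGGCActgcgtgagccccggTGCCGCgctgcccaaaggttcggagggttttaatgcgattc
Peg3/Usp29 (chr7:6729616-6729795, minus strand, that of Peg3): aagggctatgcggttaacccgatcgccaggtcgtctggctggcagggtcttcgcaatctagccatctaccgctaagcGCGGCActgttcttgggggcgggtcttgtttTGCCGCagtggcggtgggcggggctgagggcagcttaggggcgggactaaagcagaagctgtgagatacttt
Plagl1 (chr10:13091025-13091134, plus strand): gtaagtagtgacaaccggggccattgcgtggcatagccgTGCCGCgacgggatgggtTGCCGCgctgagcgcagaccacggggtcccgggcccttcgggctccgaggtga
Kcnq1ot1 (chr7:143295422-143295601, minus strand): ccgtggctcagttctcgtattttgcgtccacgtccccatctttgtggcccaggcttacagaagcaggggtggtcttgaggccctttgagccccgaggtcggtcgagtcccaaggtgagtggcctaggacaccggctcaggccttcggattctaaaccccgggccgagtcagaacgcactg
Igf2r (chr17:12769330-12769509, minus strand): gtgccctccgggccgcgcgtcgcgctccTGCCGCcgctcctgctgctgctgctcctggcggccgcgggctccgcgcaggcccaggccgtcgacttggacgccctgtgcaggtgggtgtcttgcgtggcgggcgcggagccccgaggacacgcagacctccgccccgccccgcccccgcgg
The stretches of Airn, Peg3/Usp29 and Plagl1 hold 2 hexamers each, that of Igf2r holds 1 and that of Kcnq1ot1 holds 0. Igf2r does not stand for all peaks listed in both groups, as the PBS peak of Gnas and the stronger one of Osbpl5 held 2 each. Among the peaks listed in the PBS list only, those of Mkrn3 and Inpp5f held 0. In windows of 300 bp around the summits, 8 of the 22 start peaks of the imprinted genes in the PBS list held the hexamer (36.4%, exact Clopper-Pearson 95% interval 17.2 to 59.3%), against 27.1% of the 12774 start peaks of protein-coding genes. In the OVA list 5 of 12 held it, against 28.2% of all. At members with a start at or near a germline DMR, 4 of 9 PBS peaks held it (44.4%, 13.7 to 78.8%). The Zrsr1 peak, of the same kind, is not shown, as it lies mostly in annotated untranslated sequence, and it held no hexamer. A match describes the letters only.

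Of the 40 imprinted genes, 20 had a start peak in offspring of control mothers (exact 95% interval 33.8 to 66.2%) and 11 in offspring of asthmatic mothers (27.5%, 14.6 to 43.9%). All 11 of the latter had one in both lists, 9 genes had one in the PBS list only, 0 in the OVA list only and 20 in neither. Among the 35 protein-coding members, 18 had a start peak in the PBS list (51.4%, 34.0 to 68.6%), where 50.9% of all 22028 protein-coding genes had one. The number in the OVA list was 11 of 35 (31.4%, 16.9 to 49.3%), where 41.9% of all had one. Both lists held 11 of the 35, against 41.2% of all protein-coding genes, the PBS list only 7 of 35, against 9.71% of all, and the OVA list only 0 of 35, against 0.722% of all. Of the 5 noncoding members, Airn and Kcnq1ot1 had a peak in the PBS list, against 12.7% of 9140 noncoding genes of the same types. None of the 5 had one in the OVA list (0 to 52.2%), against 10.7%. Intervals throughout cover counting error only.

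The start peaks of the members in the PBS list were weak. The median −log10 q of the strongest start peak was 9.46 for the 20 members with one and 13.7 for all protein-coding genes with one, and their median percentiles among all genes with a start peak in that list were 24.5 and 52.1. In the OVA list the medians were 7.67 for the 11 members and 7.99 for all, with median percentiles of 43.8 and 50.8. The members that still had a peak in the OVA list were mostly the stronger ones of the PBS list, as the values by gene show.

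**Figure D1:**
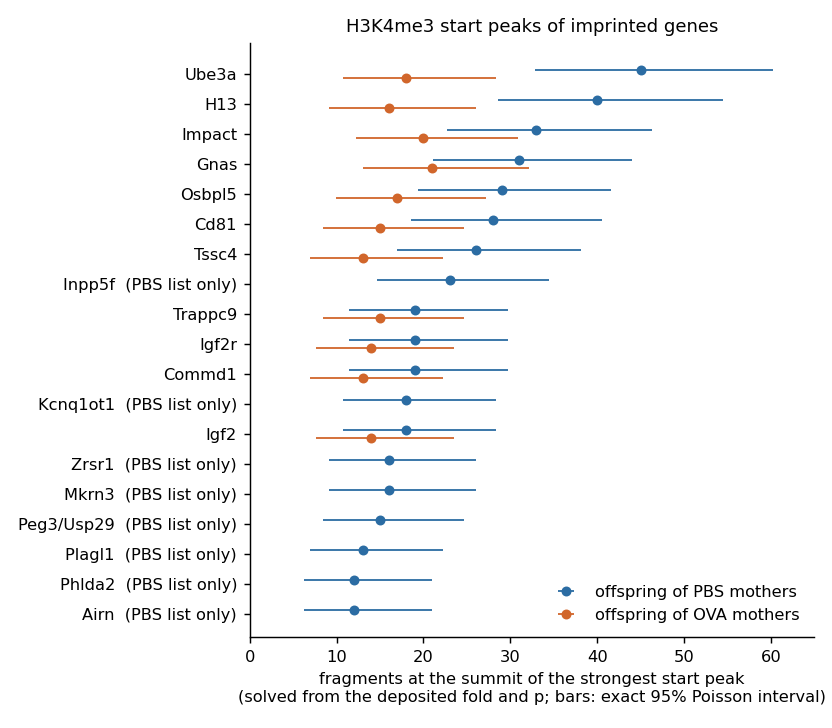
Fragments at the summit of the strongest start peak of each imprinted gene that has one, solved from the authors' fold and p, with exact 95% Poisson intervals (blue, offspring of PBS-treated control mothers; orange, offspring of OVA-treated asthmatic mothers). The 11 genes with a peak in both lists run from 18 to 45 fragments in the PBS list and from 13 to 21 in the OVA list, and those in the PBS list only from 12 to 23. The peak of Peg3 and Usp29 is the same and is drawn once.

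The members were sorted by the allele that textbook lists give as expressed, which was not measured in these cells. In offspring of control mothers, like numbers of paternally and maternally expressed genes had start peaks. In offspring of asthmatic mothers, fewer paternally than maternally expressed genes had one. With 1 library a group this difference was not tested. It did not hold for the 10000 peaks of highest −log10 p in each list, where 1 paternally and 5 maternally expressed genes had a start peak in the PBS list and 1 and 0 in the OVA list. Textbook lists of the expressed allele put 22 members in the first class and 18 in the second. In the PBS list 10 of 22 paternally expressed genes (45.5%, 24.4 to 67.8%) and 10 of 18 maternally expressed genes (55.6%, 30.8 to 78.5%) had a start peak. In the OVA list the numbers were 2 of 22 (9.09%, 1.12 to 29.2%) and 9 of 18 (interval 26.0 to 74.0%). Of all protein-coding genes 50.9% and 41.9% had one in the PBS and the OVA list, and the shares of the maternally expressed genes lay near these. Of the genes with a peak in the PBS list, 20.0% of the paternally expressed and 90.0% of the maternally expressed also had one in the OVA list, against 80.9% of all protein-coding genes. Igf2 and Impact were the paternally expressed genes with a peak in both lists, each at only some of their starts, and Phlda2 was the maternally expressed gene that had one in the PBS list only. The 9 maternally expressed genes in both lists include Gnas, whose peak lay at a start active on both chromosomes in most tissues. They also include Tssc4, Cd81 and Osbpl5, whose imprinting is described mainly in placenta. The classes thus do not give the allele in use at these starts in lung ILC2s. The classes also differed in strength within the PBS list, where the median −log10 q of the paternally expressed genes was 7.06 (median percentile 12.6) and that of the maternally expressed genes 12.0 (median percentile 40.4). The share of start peaks found again rose with strength for all genes, as given below. The part of strength in the difference between the classes was not tested.

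A list of 17 members with a start at or near a germline DMR overlaps that of the paternally expressed genes, and 9 of the 17 had a start peak in the PBS list (52.9%, 27.8 to 77.0%) and 2 in the OVA list (11.8%, 1.46 to 36.4%). Those 2 were Impact and Gnas. Among the 10000 peaks of highest −log10 p in each list the numbers were 1 and 1, so the difference was not seen there. The other 23 members had one in 11 cases (47.8%, 26.8 to 69.4%) and 9 cases (39.1%, 19.7 to 61.5%). Of all protein-coding genes, 50.9% and 41.9% had one in the PBS and the OVA list, so the share of the 17 in the PBS list was close to that of all genes. For Gnas and Inpp5f the DMR lies at an alternative start that had no peak in either list. The peak of Impact likewise lay at its most upstream start, with a CpG ratio of 0.42, and not at the start group with its highest CpG ratio (0.822), which was 18071 bp from the nearest PBS peak. Without Gnas, Inpp5f and Impact, 6 of 14 had a start peak in the PBS list (42.9%, 17.7 to 71.1%) and 0 in the OVA list (0 to 23.2%). Of 6 members whose imprinting is described mainly in placenta, the same 3, Tssc4, Cd81 and Osbpl5, had one in each list.

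**Figure D2:**
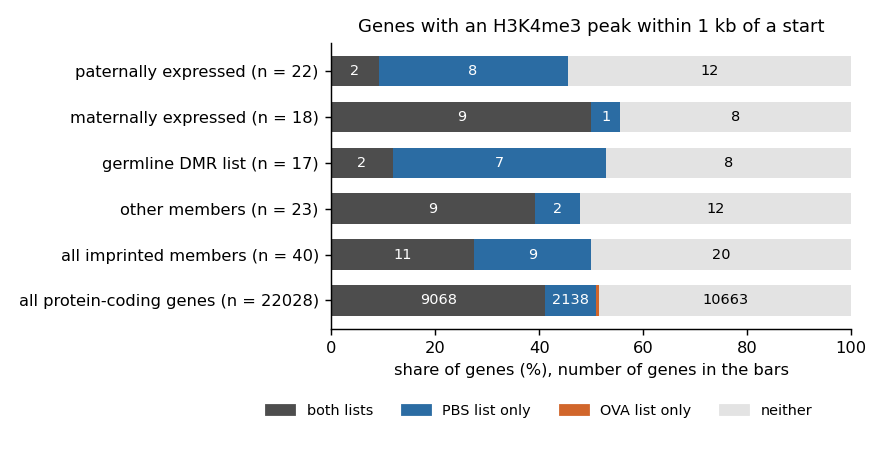
Share of genes with a start peak in both lists, in the list of offspring of PBS-treated control mothers only, in that of offspring of OVA-treated asthmatic mothers only, or in neither, with the number of genes in the bars; classes of members overlap. The paternally expressed genes hold 2 in both lists and 8 in the PBS list only, the maternally expressed genes 9 and 1.

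The noncoding RNAs that silence clusters come first. Airn, transcribed from the second intron of Igf2r against it, had 2 peaks in the PBS list, which began 281 bp and 836 bp downstream of a start. Their −log10 q was 4.60 and 3.84 and their summits held 12 and 11 fragments (Poisson intervals 6.20 to 21.0 and 5.49 to 19.7). Neither was overlapped in the OVA list, whose nearest peak lay 28021 bp from an Airn start. These were among the weakest start peaks, and of all start peaks of like strength 21.5% and 15.9% were overlapped by a peak of the OVA list. Kcnq1ot1, the antisense RNA of the imprinted domain of distal chromosome 7, had a peak of 278 bp in the PBS list 937 bp downstream of its start, inside its exon, with a −log10 q of 8.91 and 18 fragments. The OVA list had none within 226905 bp of that start, and 56.9% of start peaks of like strength were overlapped. Of the other noncoding members, H19 had its nearest peak 43067 bp away in both lists, that of Meg3 lay 219865 bp away in the PBS list and that of Peg13 250301 bp away.

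In the Igf2r cluster on chromosome 17, the start of Igf2r, whose receptor clears the growth factor IGF2, was listed in both groups. The PBS peak was 652 bp wide with a −log10 q of 10.0 and 19 fragments, and the OVA peak was 209 bp wide with a −log10 q of 6.86 and 14 fragments. Igf2r was thus listed in both groups and Airn in the PBS list only. In the Commd1 cluster on chromosome 11 the arrangement was alike, with Zrsr1, a retrogene of a splicing factor, set in an intron of Commd1, a regulator of copper handling and NF-κB. The start of Commd1 was listed in both groups, with a −log10 q of 10.7 and 19 fragments in the PBS list and 6.00 and 13 fragments in the OVA list. The peak of Zrsr1 was listed in the PBS list only, with 6.35 and 16 fragments, 357 bp from a Zrsr1 start and 1 bp from a short internal start of Commd1. The main Commd1 peak also counts for the overlapping gene Gm28048. In the third pair of this kind, Trappc9, which acts in vesicle transport, had 10.0 and 19 fragments in the PBS list and 7.74 and 15 fragments in the OVA list, and Peg13, set in an intron of Trappc9, had no start peak.

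In the Kcnq1ot1 cluster on chromosome 7, 5 of 7 members had a start peak in the PBS list (71.4%) and 3 in the OVA list (42.9%), beside 50.9% and 41.9% of all protein-coding genes. Cd81, a tetraspanin of the lymphocyte surface, had a peak of 1051 bp with a −log10 q of 13.2 and 28 fragments in the PBS list and of 809 bp with 6.75 and 15 fragments in the OVA list. The noncoding gene R74862 shares this peak. Tssc4, its neighbour, had 15.1 and 26 fragments in the PBS list against 5.68 and 13 fragments in the OVA list. Osbpl5, an oxysterol-binding protein, had 18.6 and 29 fragments against 8.44 and 17. All 3 genes had lower values in the OVA list, as start peaks had in general, and were still listed. Phlda2, a brake on placental growth, was listed in the PBS list only, with the lowest −log10 q among the strongest start peaks of the 20 members, 4.53 with 12 fragments, and 21.2% of start peaks of like strength were overlapped. Cdkn1c, a cell cycle inhibitor, and Ascl2, a factor of trophoblast cells, had no peak within 41226 bp and 36398 bp of a start in the PBS list. Other genes inside this cluster also had start peaks, which lie outside the 40 members. Nap1l4 had a −log10 q of 21.1 and 13.9 in the PBS and the OVA list, and Cars, with the antisense gene Gm15579 at the same peak, had 17.2 and 11.5. Tnfrsf22 had 16.8 and 5.17 and Tspan32 had 8.45 and 2.81, while Tnfrsf26 with the antisense gene E230032D23Rik (8.63) and Tnfrsf23 (6.21) were listed in the PBS list only.

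In the Peg3 cluster of proximal chromosome 7, Peg3, a zinc finger protein, and Usp29, a ubiquitin protease, start head to head and share a single peak of 190 bp, listed in the PBS list only. It lay 614 bp from the Peg3 start, inside an intron of that gene, and 773 bp from a Usp29 start, with a −log10 q of 7.06 and 15 fragments (8.40 to 24.7). Of start peaks of like strength 41.2% were overlapped. The counts of genes hold both Peg3 and Usp29, although their peak is the same and enters the count of 22 peaks a single time. Zim1, the maternally expressed gene of the cluster, had no peak within 33166 bp in the PBS list.

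In the Prader-Willi/Angelman region of central chromosome 7, Ube3a, the ubiquitin ligase of Angelman syndrome, had among the strongest start peaks of the PBS list. Its main peak was 840 bp wide with a −log10 q of 29.6, 45 fragments (32.8 to 60.2) and a percentile of 99.2. In the OVA list it was 582 bp wide with 10.0, 18 fragments (10.7 to 28.4) and a percentile of 72.1. A second, weaker Ube3a peak upstream of the start was also in both lists, with a −log10 q of 6.99 and 4.19. Mkrn3, a RING finger ubiquitin ligase, had a peak in the PBS list only, with 7.94 and 16 fragments, and 45.0% of start peaks of like strength were overlapped. Snrpn, Ndn and Magel2 had no start peak in either list. The nearest PBS peaks lay 11355 bp from Ndn and 6330 bp from Magel2. For Snrpn they lay 3861 bp from its far upstream start, which is poor in CpG (ratio 0.126), and 113894 bp from the other start (0.57). Snhg14, a long noncoding RNA gene of the span that is no member, had a start peak in the PBS list only (8.19). The span of 3190 kb held 75 peaks in the PBS list and 103 in the OVA list. Of these, 56 and 72 lay away from any annotated start, and 56 and 70 of them had a summit sequence of 75 bases with an exact copy elsewhere in the genome, so the place of reads there is uncertain. No start peak of a member, in either list, had such a copy.

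Igf2, the fetal growth factor, was the paternally expressed gene of the H19-Igf2 pair with a start peak in both lists. Its peak had a −log10 q of 7.66 and 18 fragments in the PBS list and 6.41 and 14 fragments in the OVA list. It lay at the third of 6 groups of Igf2 starts, which is also a start of the antisense gene Igf2os, and the transcribed strand cannot be told from the mark. Of start peaks of like strength 44.3% were overlapped, a share close to that for Mkrn3, which was not.

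Of the 12 members outside clusters, 5 had a start peak in the PBS list (41.7%) and 3 in the OVA list (25.0%), beside 50.9% and 41.9% of all protein-coding genes. H13, the signal peptide peptidase, had the highest −log10 q of all members in the PBS list, 30.0 with 40 fragments (28.6 to 54.5), and 8.65 with 16 fragments (9.15 to 26.0) in the OVA list. Impact, a regulator of translation under stress, had 22.2 with 33 fragments in the PBS list and 12.2 with 20 fragments in the OVA list, the highest −log10 q of a member there. Gnas, which encodes the stimulatory G protein alpha subunit, had the widest peaks, 1357 bp and 1093 bp, with 10.6 and 31 fragments in the PBS list and 7.67 and 21 fragments in the OVA list. Plagl1, a zinc finger factor that links other imprinted genes in growth control, was listed in the PBS list only, with 5.39 and 13 fragments, over its start in the germline DMR. Inpp5f, an inositol phosphatase, was also in the PBS list only, with 5.39 and 23 fragments on a high local background of 5.70. For both, 25.6% of start peaks of like strength were overlapped.

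Start peaks were in neither list for Mest, Grb10, Nnat, Slc38a4, Zdbf2, Rasgrf1 and Dcn, and in the other clusters for Dlk1, Peg10, Sgce and Ppp1r9a. Grb10 is an adaptor that restrains insulin signalling, Dlk1 a membrane ligand of progenitor cells, Mest and Nnat mark mesoderm and neurons, and Dcn is decorin, a matrix protein of fibroblasts. Over all 20 members without a listed start peak, the nearest peak in the PBS list was between 3628 bp (Mest) and 275683 bp (Dlk1) from a start. The spans of Dlk1-Meg3, Grb10, Zdbf2, Rasgrf1 and Dcn held no peak at all in either list. Blcap, in whose intron Nnat lies, had a start peak in both, with a −log10 q of 20.7 and 5.17.

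Starts at most 1000 bp apart were joined to groups, and 27 members had more than 1 group. Of the 103 groups of these members, 19 had a peak in the PBS list and 10 in the OVA list, where 22.0% and 18.0% of the 39028 start groups of protein-coding genes with several groups had one. The share of the members' groups in the PBS list was thus near that of all genes. Gnas has 6 groups, and in both lists the peak was at the fourth, the start of the transcript for the G protein subunit, which is active on both chromosomes in most tissues. The first 3 groups, which are those of Nesp, of the extra-large XL form and of exon 1A and so include the imprinted starts, had no peak in either list; the nearest peak was 1751 bp from exon 1A in the PBS list and 1806 bp in the OVA list. Inpp5f had its peak at the main upstream start, while the internal start set in the DMR, which gives the imprinted variant, had none within 51220 bp in the PBS list and 11436 bp in the OVA list. Impact had its peak at the first of 5 groups and none at the others, in both lists. Plagl1 differed, with its PBS peak at the second of 4 groups, the imprinted start, and none at the upstream start. Osbpl5 had the stronger of its PBS peaks (18.6), and its OVA peak, at an internal start, whereas the peak at its upstream start (7.06) was listed in the PBS list only.

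**Figure D3:**
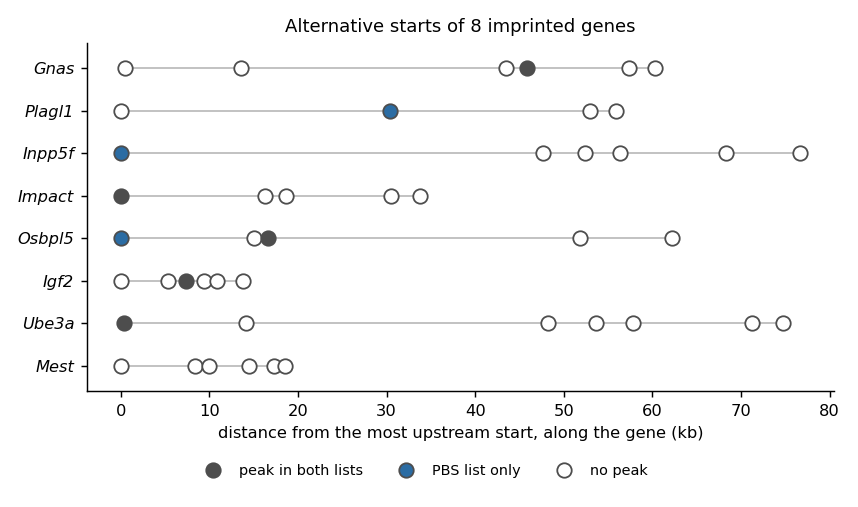
Groups of annotated starts of 8 imprinted genes, by distance in kb from the most upstream start along the gene; circles are filled dark for a peak in both lists, blue for a peak in the list of offspring of PBS-treated control mothers only and open for no peak. The peak of Gnas is at the fourth of 6 groups, that of Plagl1 at the second of 4, that of Inpp5f at the first of 6, and Mest has none at 6 groups.

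CpG-rich starts often carry H3K4me3, and several imprinted genes had such starts without a peak. A start group was called CpG-rich when the 1 kb around it had a GC content of at least 50% and an observed over expected CpG ratio of at least 0.6, and 25 members, all of them protein-coding, had such a start. Of these, 14 had a peak there in the PBS list and 8 in the OVA list, where 83.1% and 70.7% of the 10747 protein-coding genes with a CpG-rich start had one. The 11 CpG-rich genes without one in either list were Cdkn1c, Ascl2, Dlk1, Mest, Grb10, Nnat, Peg10, Sgce, Ppp1r9a, Zdbf2 and Rasgrf1, which are best known from growth, placenta, muscle or brain. The CpG ratio was 1.06 at a Grb10 start, 0.978 at that of Zdbf2 and 0.918 at that of Nnat, and the highest ratios at starts with a peak in both lists were 0.921 for Ube3a and 0.903 for Igf2r. Of the 15 members without a CpG-rich start, 6 had a start peak in the PBS list and 3 in the OVA list, where 19.7% and 13.7% of the 11281 protein-coding genes without a CpG-rich start had one. The groups are unlike, as the 15 hold the 5 noncoding members, Airn and Kcnq1ot1 among the 6 with a PBS peak. Of the germline DMR list, 10 had a CpG-rich start, with a peak there in 5 and in 1.

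**Figure D4:**
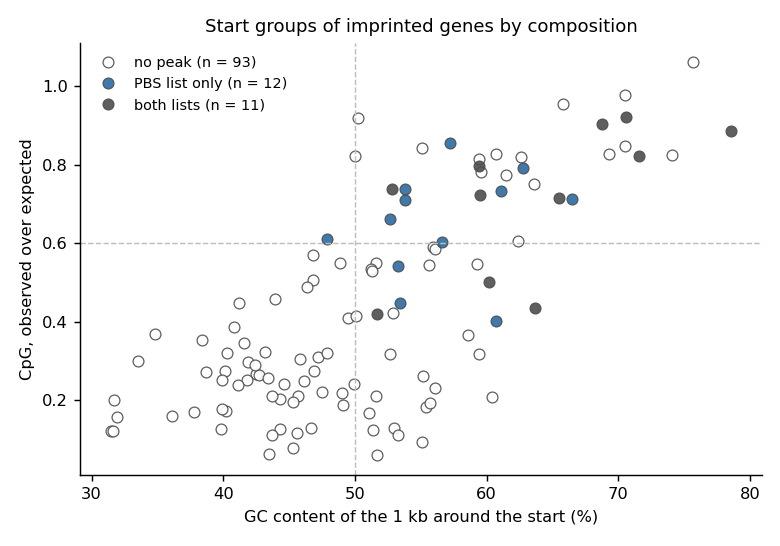
GC content (%) and observed over expected CpG ratio in the 1 kb around each of the 116 start groups of the imprinted genes, by whether a peak lay there; dashed lines mark the limits of 50% and 0.6. Open circles without a peak are found among the most CpG-rich starts, up to a ratio of 1.06.

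Taken by peak, the members had 22 distinct start peaks in the PBS list, of which 12 were overlapped by at least 1 bp by a peak of the OVA list (54.5%, 32.2 to 75.6%), against 70.0% of all 12774 start peaks of protein-coding genes. All 12 start peaks of members in the OVA list overlapped a peak of the PBS list, against 95.6% of all. At paternally expressed members 2 of 10 PBS peaks were overlapped (20.0%, 2.52 to 55.6%) and at maternally expressed members 10 of 13 (76.9%, 46.2 to 95%), the peak of Zrsr1 and Commd1 counting in both classes. Over all genes this share rose from 18.0% for start peaks with a −log10 q under 5 to 97.5% for those of 20 or more. The 12 overlapped peaks of members had a median −log10 q of 12.0 and 27 fragments at the median, and the 10 others 5.87 and 15 fragments. All 10 had a −log10 q of 8.91 or less, a range in which at most 56.9% of start peaks of like strength were overlapped. In the same range Igf2 (7.66) and the upstream peak of Ube3a (6.99) were overlapped.

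**Figure D5:**
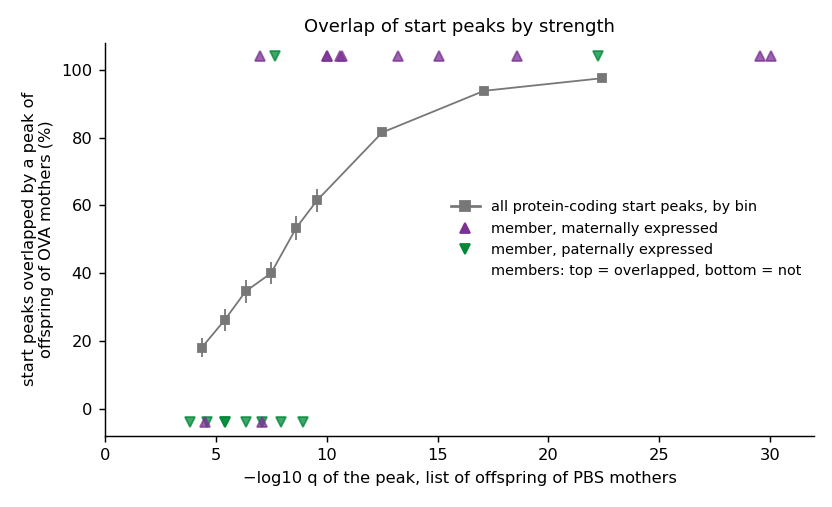
Share of protein-coding start peaks of the PBS list overlapped by a peak of the OVA list (%), in bins of −log10 q (squares at the bin's median, exact 95% intervals), with the 22 start peaks of imprinted genes as triangles at the top where overlapped and at the bottom where not. The 10 member peaks at the bottom lie at 8.91 or less, where at most 56.9% of peaks of like strength were overlapped; the peak of Zrsr1 and Commd1 is drawn as paternally expressed.

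All 11 members listed in both groups had fewer fragments at the summit and a narrower peak in the OVA list. The share of all genes in both lists that did so is not given here. Over all start peaks of protein-coding genes the median number of fragments was likewise lower in the OVA list, 16 against 24, and the median width was 320 bp against 472 bp, and fragments are not scaled between the libraries. Start peaks of protein-coding genes numbered 12774 among the 42126 peaks of the PBS list and 10070 among the 51610 of the OVA list. The lower values of the members in the OVA list thus came with lower values over all genes. In such bulk samples, fewer marked cells, less mark per cell and a library of weaker enrichment or lower depth cannot be told apart.

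Imprinted genes outside the 40 members were counted in the same way. Of 50 other imprinted mouse genes, 17 had a start peak in the PBS list (34.0%, 21.2 to 48.8%) and 13 in the OVA list (26.0%, 14.6 to 40.3%), with 12 in both, beside 50.9% and 41.9% of protein-coding genes. The 50 were not split into coding and noncoding genes, and of noncoding genes of the members' types 12.7% and 10.7% had one. Pon3, Sfmbt2, Qpct, Chrac1 and Tnfrsf23 had one in the PBS list only, and Peg12 in the OVA list only, with a −log10 q of 6.86. Of 13 proteins that keep or read imprints, 12 had a start peak in the PBS list and 10 in the OVA list (92.3% and 76.9%, beside 50.9% and 41.9% of all protein-coding genes). For protein-coding genes with a CpG-rich start, the shares with a peak there were 83.1% and 70.7%. Zfp445, a zinc finger protein that acts beside ZFP57, had a −log10 q of 28.5 and 11.5, Setdb1, a histone methyltransferase, 22.4 and 12.2, and Dnmt1, which copies DNA methylation, 14.3 and 11.3. Zfp57 itself (4.60) and Uhrf1 (8.78), which brings DNMT1 to newly copied DNA, were listed in the PBS list only, and Dppa3, a protein of egg and early embryo, in neither.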

How the data were processed

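H3K4me3 CATCH-seq libraries of lung ILC2s from offspring of control and asthmatic mothers were compared, 1 per group. The authors trimmed the paired reads with Trim Galore and Cutadapt, mapped the reads to GRCm38 (mm10) using Bowtie 2 and took out duplicates using Sambamba. The peak caller, its threshold and any control were not given in the sources used here, and the study's reporting summary says peaks were not called. For each library the authors deposited 1 peak list, called separately, with a score (10 times the −log10 q, rounded down), a fold (a ratio of summit to background), −log10 p- and q-values, and the summit offset. None of these values is scaled between libraries, so they rank peaks within a list, and values set side by side between lists are descriptions. Read depth is not in the lists. Fragments at a summit were solved from both fold and −log10 p, under a Poisson model with 1 added to signal and background. The fold was met by construction, and −log10 p was returned for 100% of peaks. The fragment numbers are derived, assume no control and are not scaled between lists.

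All 40 members are named, by chromosome cluster. Also named are other genes that share a member's start peak, and coding or long noncoding genes with a start peak in a cluster's span. Genes of the further lists with a peak in 1 list and cell type markers are named too. Of the genes that share a PBS peak, Gm27741 (with Plagl1), Gm23833 (with Igf2r) and Gm27675 (with Peg3 and Usp29) are named only here. Members, lists, textbook alleles, DMRs and comparisons were chosen with earlier results of these data known. The limits for CpG-rich starts and the further examples among imprint proteins were set after values were seen. A start peak lay within 1000 bp of any GENCODE vM21 transcript start. Peaks were overlapped at 1 bp or more. Like strength means a −log10 q within 0.5. Shares have exact Clopper-Pearson and fragments exact Poisson intervals of 95%. Copies of the 75 bases at summits were sought in either strand of all assembled chromosomes. Steps were tested on simulated data. Alternatives varied distance, peaks, starts, ranking and overlap. Scripts ran in Python 3.11.15 (scipy 1.17.1, pandas 2.3.3, numpy 2.4.6; matplotlib 3.10.9 for plots).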

Additional observations from a re-analysis of the deposited data

How the results depend on the processing

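With 1 library per group, no result carries a test, and leaving out a library was not possible. No paired analysis was possible because each group holds 1 library. A count was taken as stable within 1.5 times its value, and a share or a median percentile within its 95% interval. The counts of paternally and maternally expressed members were added to the alternatives after seeing the data. Of 80 recomputed values, 67 were stable. With only the 10000 peaks of highest −log10 p in each list, 6 members had a start peak in the PBS list and 1 in the OVA list, 1 in both and 5 in the PBS list only. Germline DMR members then numbered 1 and 1, paternally expressed members 1 and 1, and maternally expressed members 5 and 0, and 16.7% of member start peaks were overlapped. Among these peaks the order of the paternally and maternally expressed counts in offspring of asthmatic mothers was turned. With the upstream end of each gene as its only start, 1 germline DMR member and 1 paternally expressed member had a start peak in offspring of asthmatic mothers in place of 2. Within 500 bp the peaks of Peg3, Usp29 and Kcnq1ot1 no longer counted, and 17 members had a start peak in offspring of control mothers. An overlap of at least 50% of both peaks gave 40.9% of member start peaks overlapped. The weak peaks, of 11 to 23 fragments, limit what the absence of a peak from the other list can show.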
